A study of Homo sapiens with 6 samples.

Results

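The genes described here encode the enzymes of glycolysis, the pyruvate dehydrogenase complex and the tricarboxylic acid (TCA) cycle, with the carriers that bring glucose in and take lactate out. They were taken by symbol, 42 in all, with 22 assigned to glycolysis, 6 to pyruvate dehydrogenase and 14 to the TCA cycle. The 14 TCA cycle genes include cytosolic forms, among them IDH1 and ACO1, beside the mitochondrial enzymes. All 42 were listed in each of the 3 experiments, which gave values for 17602, 16293 and 22642 genes, and all 42 reached a level of 1 or more in at least 1 library of every experiment. RNA was sequenced from C4-2B, a bone-metastatic derivative of the LNCaP line of human prostate cancer, grown in medium with mostly charcoal-stripped serum to mimic castration. Cells received 5 µM SR2211, an inverse agonist of a nuclear receptor, or its vehicle in the first experiment, 5 µM XY011, known here only by its code name, or its vehicle in the second, and 20 µM enzalutamide (ENZ), an antiandrogen used against prostate cancer, or its vehicle in the third. RNA was collected after 48 h in all 6 libraries, and each group is 1 library of 1 cell line. Differences within an experiment therefore have no replicate check and no p-value, and each treated library was set against the vehicle of its own experiment.

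Glycolysis splits glucose into pyruvate and yields ATP and NADH. Lactate dehydrogenase can then reduce pyruvate to lactate, or the pyruvate dehydrogenase complex can turn it into acetyl-CoA for the TCA cycle in mitochondria, and pyruvate dehydrogenase kinases switch that complex off. Many tumours run glycolysis fast and release lactate even with oxygen present. Normal prostate epithelium is known for an unusual TCA cycle in which citrate is secreted rather than oxidised.

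Promoter sequence is shown for 3 glycolytic genes that stood lower with both SR2211 and XY011, LDHA (lactate dehydrogenase A), ENO1 (enolase 1) and PKM (pyruvate kinase M). The letters ACGTG and CACGTG were searched on both strands of the 250 bases before each RefSeq gene start (GRCh38.p14). ACGTG is 1 form of the core of sites known for hypoxia-inducible factors, and other forms of that core were not searched. CACGTG is the E-box of basic helix-loop-helix factors. CACGTG contains ACGTG on both strands, so the counts overlap. Stretches that match on either strand are in capitals, and each window runs 5′ to 3′ on the strand of its gene.
LDHA, chr11:18394313-18394562, + strand: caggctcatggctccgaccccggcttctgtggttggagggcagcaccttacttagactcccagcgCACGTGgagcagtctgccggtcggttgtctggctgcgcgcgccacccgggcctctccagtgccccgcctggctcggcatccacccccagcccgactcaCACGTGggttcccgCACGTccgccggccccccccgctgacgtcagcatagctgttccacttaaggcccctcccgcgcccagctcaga
ENO1, chr1:8878687-8878936, - strand: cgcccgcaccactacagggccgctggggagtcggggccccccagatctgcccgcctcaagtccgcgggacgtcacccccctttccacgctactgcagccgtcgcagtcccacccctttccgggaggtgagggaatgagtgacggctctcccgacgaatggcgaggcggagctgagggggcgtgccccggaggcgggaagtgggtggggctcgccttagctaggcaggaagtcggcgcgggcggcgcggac
PKM, chr15:72231191-72231440, - strand: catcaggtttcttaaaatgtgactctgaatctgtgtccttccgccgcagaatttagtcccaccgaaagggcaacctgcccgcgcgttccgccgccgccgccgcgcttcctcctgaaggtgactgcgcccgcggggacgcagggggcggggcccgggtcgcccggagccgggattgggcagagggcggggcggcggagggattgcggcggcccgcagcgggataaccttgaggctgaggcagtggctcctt

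The LDHA window held 3 such stretches, 2 of them CACGTG, at -185 to -180, -87 to -82 and -73 to -69 bases from the start, and the ENO1 and PKM windows held neither set of letters. All 3 windows were rich in G and C, at 69.6% in LDHA, 72% in ENO1 and 68.4% in PKM. A promoter was found for 39 of the 42 genes. A gene was counted below if any of its windows held the letters. Genes with several RefSeq starts, such as HK1, PFKM and PFKP, thus had more chances of a match. Most TCA cycle genes had a single window. Over all 35116 windows, 18.5% held the shorter set of letters and 6.34% the longer one. The shares of genes below are not corrected for the number of windows, so part of the contrast between arms may come from it. ACGTG lay in 12 of 20 glycolytic genes (60%), in 4 of 6 pyruvate dehydrogenase genes (66.7%) and in 1 of 13 TCA cycle genes (7.69%), that of IDH1, against 5935 of 27305 genes with a promoter (21.7%). CACGTG lay in 6 glycolytic genes (30%), 2 pyruvate dehydrogenase genes (33.3%) and 0 TCA cycle genes, against 2110 of all genes (7.73%). Of the 10 genes past the 2-fold rule in any experiment that had a promoter, 6 held ACGTG, LDHA, TPI1, PGK1, ENO2, DLAT and IDH1. The windows of ENO1, PKM, PGAM1 and IDH3A held no match, and the RefSeq start of PGAM1 lies 284 bases from the nearest GENCODE 29 start. A match describes the letters of a window and says nothing of binding.

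Values are RPKM in the SR2211 experiment and FPKM in the other experiments, both read numbers scaled for transcript length and library size. Depth in the SR2211 experiment, worked out from microRNA genes of known length, was 8.16 M mapped reads with SR2211 and 8.20 M in its vehicle, so 1 RPKM stood for about 8.16 and 8.2 reads per kilobase. Depth of the XY011 and ENZ libraries could not be worked out, and no counting error is given there. The 6 luminal prostate markers used were listed in every library, with a summed level of 946 RPKM with SR2211 and 2426 in its vehicle, 1118 FPKM with XY011 and 2465 in its vehicle, and 3039 FPKM with ENZ and 4508 in its vehicle. Basal and endothelial markers summed to at most 4.49 and leukocyte markers to at most 13.3. Stromal markers reached 44.6 FPKM with ENZ and 28.1 in its vehicle, of which COL1A1 made up 34.8 and 14.1 and DCN 4.34 and 8.94, and at most 5.62 elsewhere. Of the 6 luminal markers 3, 3 and 1 were lower with SR2211, XY011 and ENZ by the 2-fold rule given below, KLK2 in all 3 experiments, and 0 were higher. FOLH1 had positive changes with SR2211 (0.44) and ENZ (0.49), and KRT8 stayed within 0.19 of 0. The part of these markers in the results below was not tested. In bulk RNA, fewer cells with a transcript and less of it per cell cannot be told apart.

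Most of these genes are abundant. In the vehicle libraries GAPDH stood above 99.97%, 99.98% and 99.62% of tested genes in the SR2211, XY011 and ENZ experiments, and ENO1 above at least 99.45%. ENO2, the enolase of neurons and neuroendocrine cells, was the lowest member in the SR2211 and XY011 vehicles, above 11.1% and 3.51% of tested genes, and PFKFB4 in the ENZ vehicle, above 42.6%.

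**Figure D1:**
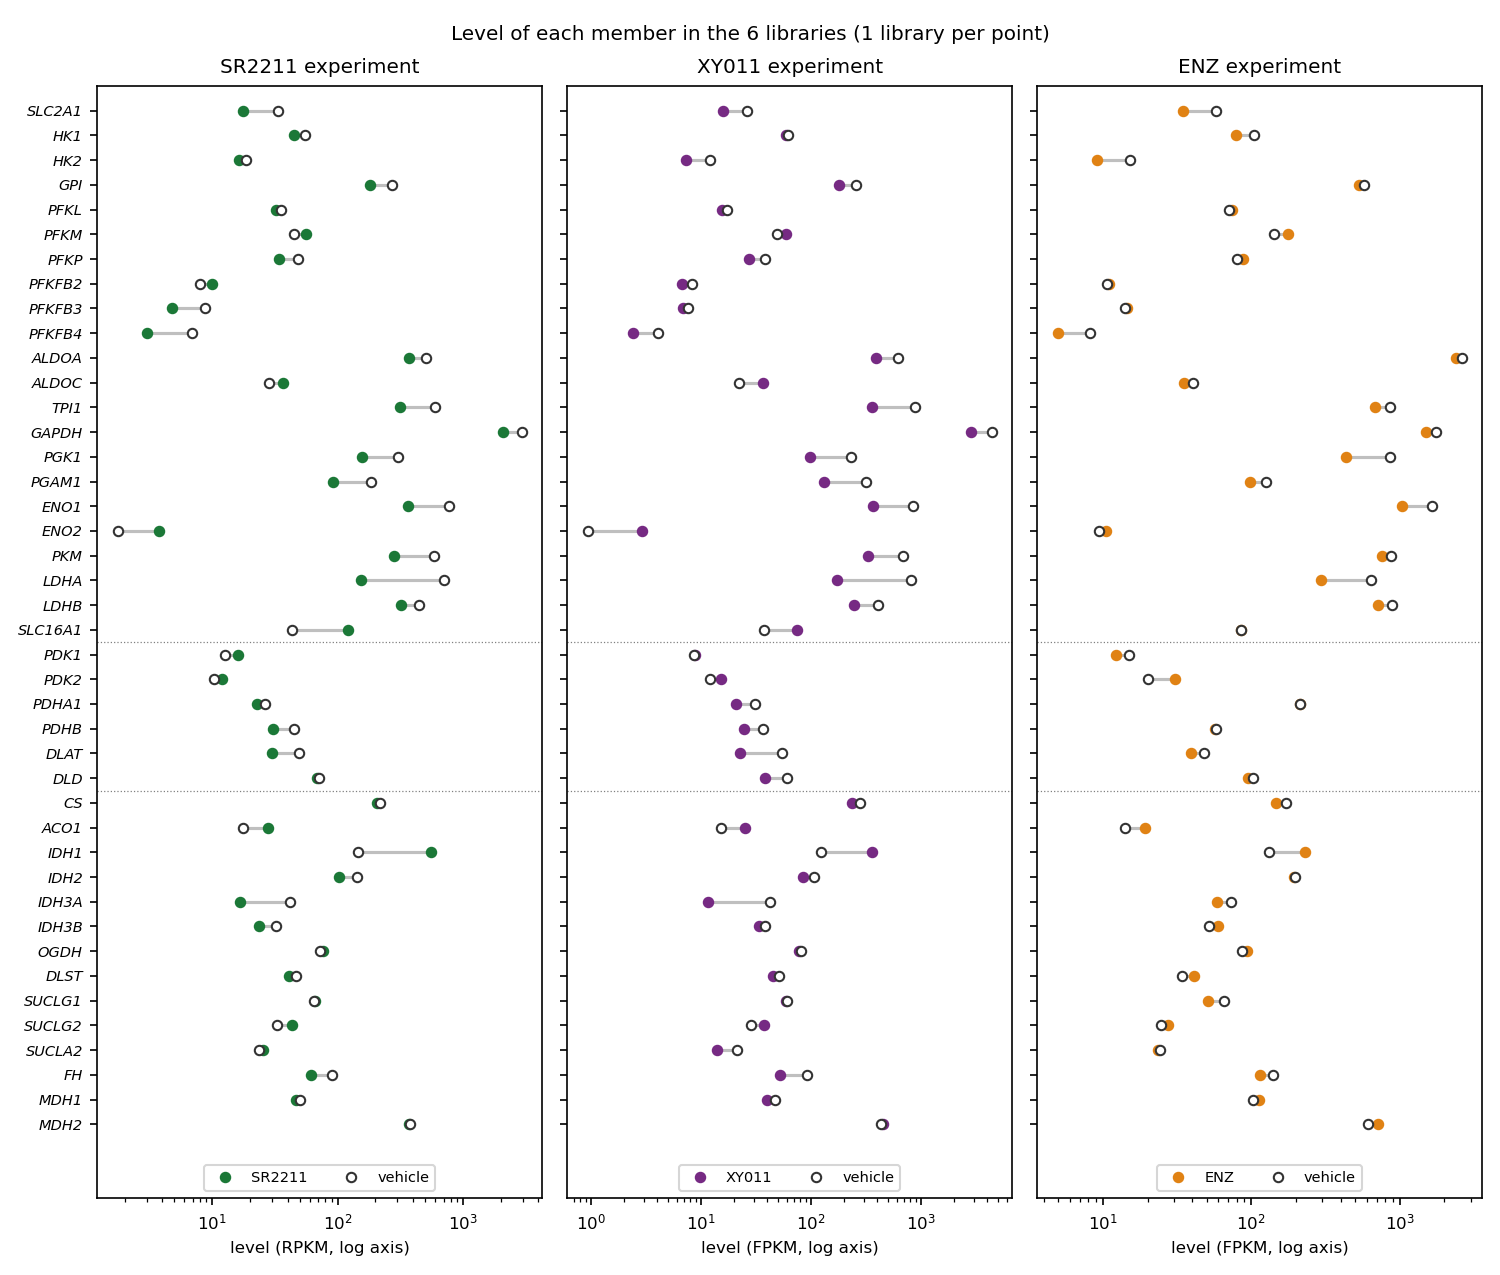
Level of the 42 genes in each library on a log axis, in RPKM for SR2211 and FPKM for XY011 and ENZ, with filled points for the treated library, open points for its vehicle and a grey line joining the pair; dotted lines part glycolysis, pyruvate dehydrogenase and the TCA cycle. LDHA stands far left of its vehicle in all 3 panels (154 against 705 RPKM with SR2211) and IDH1 to the right (553 against 145 RPKM).

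Changes are given as log2((treated + 1)/(vehicle + 1)). Genes past a size of 1 on this scale, that is 2-fold after 1 is added, were called higher or lower. Low genes can thus miss the rule with raw ratios past 2-fold, as ENO2 (2.12) and PFKFB4 (0.436) did with SR2211. With SR2211, 5 of 42 genes were lower (11.9%), PGAM1, ENO1, PKM, LDHA and IDH3A, where 5.74% of all 12158 tested genes were. SLC16A1 and IDH1 were higher, 2 of 42 (4.76%), against 5.1% of all. With XY011, 8 were lower (19%), the same 5 with TPI1, PGK1 and DLAT, against 13.2% of 12627 tested genes, and 2 were higher, ENO2 and IDH1 (4.76%), against 7.59%. ENO2 entered this comparison only through its treated value. XY011 shifted the median of all genes by -0.14, and 36.6% of its called genes were higher, a share that became 51.1% when the pair was centred on its median gene. With ENZ, LDHA alone was lower (2.38% of the members), against 4.66% of 19252 genes, and 0 were higher, against 3.67%. The share of lower members thus stood above the background with SR2211 and XY011, but with XY011 the gap depended on the setting. There it was 19.0% against 18.1% of all genes with 0.1 added in place of 1, and 19.0% against 16.9% with sum scaling. Centring gave 16.7% against 9.6%, and quantile scaling 21.4% against 10.0%. With ENZ the share of lower members rested on 1 gene, and its side of the background changed with the setting. A 1.5-fold rule gave 14.3% of members there against 12.4% of all genes. The share of higher members stood near or below the background in all 3 experiments.

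By arm, the median log2 change of the glycolysis genes was -0.49 with SR2211, -0.62 with XY011 and -0.21 with ENZ, beside medians of -0.07, -0.14 and -0.02 over all tested genes. Negative changes were seen in 17, 18 and 15 of the 22 glycolysis genes. The TCA cycle genes had medians of -0.05, -0.18 and 0.13, with 8, 10 and 6 of 14 below 0. Their median with SR2211 changed sign to 0.01 when the pair was centred on its median gene and to 0.02 with quantile scaling. The pyruvate dehydrogenase genes had medians of -0.13, -0.56 and -0.06, with 4 of 6 below 0 in each experiment.

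**Figure D2:**
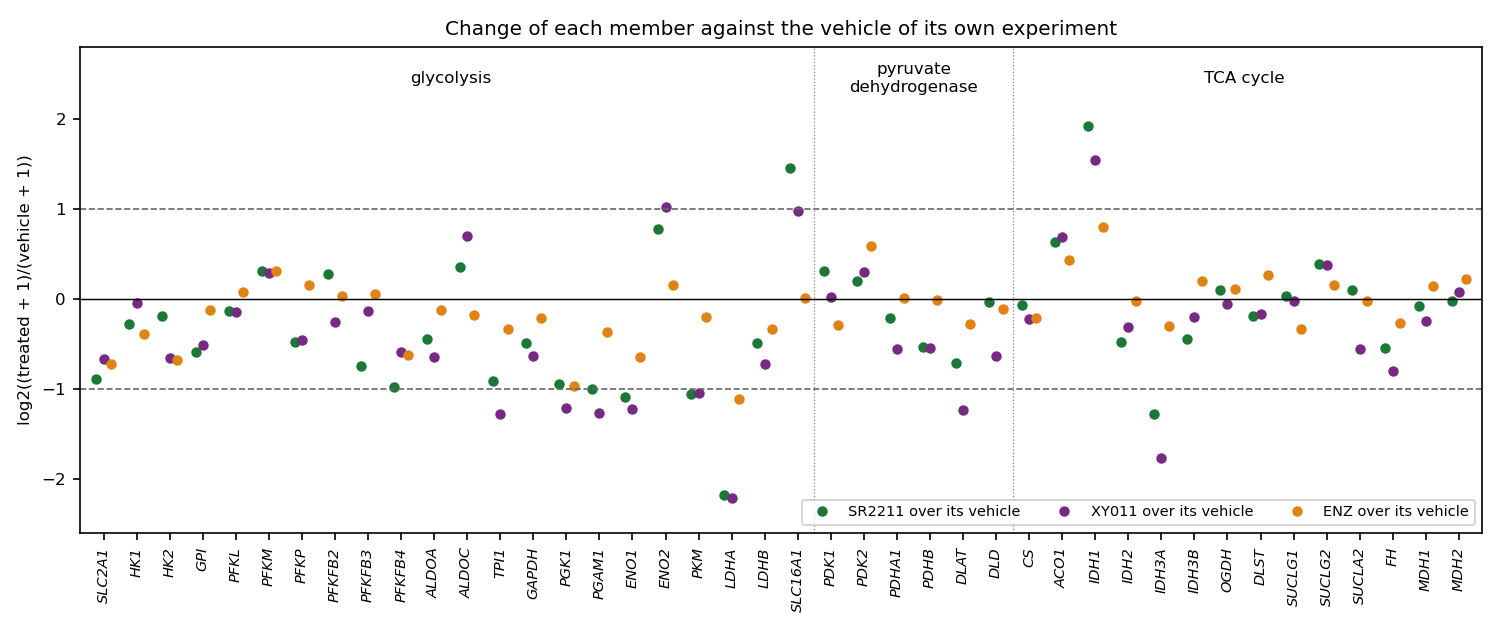
Log2 change of each gene against the vehicle of its own experiment, with green points for SR2211, purple for XY011 and orange for ENZ; dashed lines mark the 2-fold rule and dotted lines part the arms. LDHA lies lowest in all 3 experiments (-2.19, -2.22 and -1.11), ENO2 and SLC16A1 lie at or above 0 in that arm, and the TCA cycle genes scatter around 0 apart from IDH1 and IDH3A.

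Both glucose-entry genes described had negative changes in every experiment, none 2-fold. SLC2A1, the glucose transporter GLUT1, stood at 17.6 RPKM with SR2211 against 33.7 in vehicle (log2 change -0.90), at 15.9 FPKM with XY011 against 25.9 (-0.67) and at 34.7 FPKM with ENZ against 58.2 (-0.73). Its change was nearest to the 2-fold line with SR2211. HK2, the inducible hexokinase that traps glucose as glucose 6-phosphate, stood at 16.3 RPKM with SR2211 against 18.7 in vehicle (-0.19), at 7.24 FPKM with XY011 against 12.01 (-0.66) and at 9.17 FPKM with ENZ against 15.3 (-0.68). The other hexokinase, HK1, and glucose-6-phosphate isomerase, GPI, also had negative changes in all 3 experiments, all smaller than 2-fold, and that of HK1 with XY011 turned positive after centring (0.10) or quantile scaling (0.13).

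The committed step, phosphofructokinase, had isoenzymes whose changes differed in sign with SR2211 and XY011 but not with ENZ. PFKM, its muscle-type subunit, was the higher one in every treated library, at 55.8 RPKM with SR2211 against 44.9 in vehicle (0.31), 59.6 FPKM with XY011 against 48.7 (0.29) and 178 FPKM with ENZ against 143 (0.31). PFKL, the liver-type subunit, and PFKP, the platelet-type subunit, had negative changes with SR2211 and XY011 and positive ones with ENZ, none of them 2-fold. PFKFB2, PFKFB3 and PFKFB4 make or remove fructose 2,6-bisphosphate, the strongest activator of phosphofructokinase. PFKFB4 stood at 3.01 RPKM with SR2211 against 6.89 in vehicle (-0.98), 2.38 FPKM with XY011 against 4.10 (-0.59) and 4.95 FPKM with ENZ against 8.18 (-0.62). PFKFB3 stood at 4.79 RPKM with SR2211 against 8.70 in vehicle (-0.75), 6.82 FPKM with XY011 against 7.59 (-0.14) and 14.6 FPKM with ENZ against 14.1 (0.05). PFKFB4 had negative changes in all 3 experiments, and neither gene passed the 2-fold rule in any. The raw PFKFB4 level with SR2211 was 0.436 of vehicle. There PFKFB4 passed the rule with 0.1 added in place of 1, or with libraries scaled to the same sum. The aldolases were below 2-fold in every experiment, with ALDOA, the main one, negative in all 3. ALDOC, the minor one, had positive changes with SR2211 (0.35) and XY011 (0.69) and a negative one with ENZ (-0.18).

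The steps after aldolase, where ATP and NADH are made, held most of the genes past the 2-fold rule. TPI1, triosephosphate isomerase, stood at 315 RPKM with SR2211 against 596 in vehicle (-0.92), 361 FPKM with XY011 against 880 (-1.28) and 677 FPKM with ENZ against 855 (-0.34). GAPDH, which makes the NADH of glycolysis and is often used as a reference transcript, stood at 2096 RPKM with SR2211 against 2954 in vehicle (-0.50), 2819 FPKM with XY011 against 4395 (-0.64) and 1504 FPKM with ENZ against 1744 (-0.21). PGK1, phosphoglycerate kinase, stood at 157 RPKM with SR2211 against 304 in vehicle (-0.95), 97.6 FPKM with XY011 against 229 (-1.22) and 438 FPKM with ENZ against 861 (-0.98). All 3 had negative changes in every experiment, and TPI1 and PGK1 passed the 2-fold rule with XY011 alone.

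PGAM1, phosphoglycerate mutase, stood at 91.5 RPKM with SR2211 against 185 in vehicle (-1.01), 131 FPKM with XY011 against 317 (-1.27) and 97.6 FPKM with ENZ against 126 (-0.37). ENO1 stood at 363 RPKM with SR2211 against 773 in vehicle (-1.09), 363 FPKM with XY011 against 851 (-1.23) and 1044 FPKM with ENZ against 1643 (-0.65). PKM, which makes pyruvate, stood at 282 RPKM with SR2211 against 588 in vehicle (-1.06), 330 FPKM with XY011 against 682 (-1.04) and 760 FPKM with ENZ against 877 (-0.21). These consecutive enzymes had SR2211 levels near 0.5 of vehicle, and PGAM1 and PKM lay close to the 2-fold line. After centring each pair on its median gene, PGAM1 and PKM with SR2211 and PKM with XY011 no longer passed it. ENO2 went the other way from ENO1, at 3.74 RPKM with SR2211 against 1.76 in vehicle (0.78), 2.91 FPKM with XY011 against 0.93 (1.02) and 10.6 FPKM with ENZ against 9.36 (0.16).

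LDHA, which converts pyruvate to lactate, had the largest change of the 42 genes in all 3 experiments. It stood at 154 RPKM with SR2211 against 705 in vehicle (-2.19), at 173 FPKM with XY011 against 810 (-2.22) and at 295 FPKM with ENZ against 639 (-1.11). LDHB, its counterpart that favours the reverse reaction, stood at 319 RPKM with SR2211 against 448 in vehicle (-0.49), 244 FPKM with XY011 against 402 (-0.72) and 709 FPKM with ENZ against 894 (-0.33). SLC16A1, the monocarboxylate transporter MCT1 that moves lactate and pyruvate, was higher with SR2211, at 120.1 RPKM against 43.1 in vehicle (1.46). With XY011 it stood at 75.0 FPKM against 37.7 in vehicle (0.97), just under the 2-fold rule, which it passed after centring or quantile scaling. With ENZ it stood at 85.3 FPKM against 85.0 in vehicle (0.01), practically level.

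Of the pyruvate dehydrogenase genes, DLAT alone passed the 2-fold rule, and with XY011 alone. DLAT, the acetyltransferase core of the complex, stood at 29.8 RPKM with SR2211 against 49.6 in vehicle (-0.71), 22.4 FPKM with XY011 against 54.1 (-1.23) and 39.2 FPKM with ENZ against 48.0 (-0.28). PDHA1, a subunit of its first enzyme, stood at 22.6 RPKM with SR2211 against 26.4 in vehicle (-0.21), 20.7 FPKM with XY011 against 31.0 (-0.56) and 215 FPKM with ENZ against 213 (0.01). PDHB, the other subunit of that enzyme, and DLD, the shared dihydrolipoamide dehydrogenase, had negative changes in all 3 experiments, from -0.02 to -0.64, which after centring or quantile scaling turned positive for DLD with SR2211 and PDHB with ENZ. The inhibitory kinase genes PDK1 and PDK2 stayed within 0.58 of 0 everywhere.

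In the TCA cycle arm, IDH1 and IDH3A alone passed the 2-fold rule, with SR2211 and XY011, and the first enzyme was nearly level. IDH1 and ACO1 are cytosolic forms counted in this arm and lie outside the mitochondrial cycle. CS, citrate synthase, stood at 207 RPKM with SR2211 against 218 in vehicle (-0.07), 236 FPKM with XY011 against 276 (-0.23) and 148 FPKM with ENZ against 171 (-0.21). ACO1, the cytosolic aconitase that also binds iron-responsive RNA elements, stood at 27.8 RPKM with SR2211 against 17.7 in vehicle (0.63), 24.9 FPKM with XY011 against 15.1 (0.68) and 19.3 FPKM with ENZ against 14.02 (0.43). Its changes were positive in every experiment and under 2-fold.

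IDH1, the cytosolic enzyme that makes NADPH from isocitrate, stood at 553 RPKM with SR2211 against 145 in vehicle (1.92), 360.5 FPKM with XY011 against 123 (1.54) and 230.1 FPKM with ENZ against 132 (0.80). IDH2, its mitochondrial counterpart, stood at 102 RPKM with SR2211 against 143 in vehicle (-0.48), 84.9 FPKM with XY011 against 106 (-0.32) and 194 FPKM with ENZ against 197 (-0.02). IDH3A, the catalytic subunit of the NAD-dependent enzyme that drives the cycle, stood at 16.7 RPKM with SR2211 against 42.1 in vehicle (-1.29), 11.6 FPKM with XY011 against 41.9 (-1.77) and 58.6 FPKM with ENZ against 72.8 (-0.31). With SR2211 and XY011, IDH1 was thus higher and IDH3A lower by the 2-fold rule, and IDH2 passed it in no experiment. IDH3B, a further subunit of the NAD-dependent enzyme, had changes from -0.44 to 0.20.

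The remaining steps stayed under 2-fold in every experiment. FH, fumarate hydratase, had the largest negative change among them with XY011, and stood at 61.0 RPKM with SR2211 against 89.5 in vehicle (-0.55), 52.2 FPKM with XY011 against 91.9 (-0.81) and 115 FPKM with ENZ against 139 (-0.27). MDH2, the mitochondrial malate dehydrogenase that closes the cycle, stood at 373 RPKM with SR2211 against 381 in vehicle (-0.03), 453 FPKM with XY011 against 429 (0.08) and 710.3 FPKM with ENZ against 608 (0.22). OGDH and DLST of the 2-oxoglutarate dehydrogenase complex, SUCLG1, SUCLG2 and SUCLA2 of succinate-CoA ligase, and MDH1 moved by at most 0.56. Of the 14 TCA cycle genes, 10 stayed within 0.5 of 0 with SR2211, 9 with XY011 and 13 with ENZ, against 10, 6 and 16 of the 22 glycolysis genes. Over all tested genes the shares were 62%, 48.6% and 69.8%, so the TCA cycle share stood closest to them with SR2211.

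SR2211 and XY011 were given at the same dose for the same time, in separate experiments with separate vehicles. Across the 42 genes their log2 changes correlated at 0.92 by Pearson's r and 0.87 by Spearman's rho, beside 0.79 and 0.76 over the 11641 genes tested in both, as a description of genes that share libraries and not of replicates. The sign was the same in 37 of 42 members and in 9241 of the 11641 genes, and PFKFB2, OGDH, SUCLG1, SUCLA2 and MDH2 had opposite signs. With XY011 the signs of OGDH and SUCLG1 turned positive after centring or quantile scaling, and so did that of MDH2 with SR2211 after centring. Past the 2-fold rule with both compounds were 5 lower genes, PGAM1, ENO1, PKM, LDHA and IDH3A, against 4.57% of all genes, and 1 higher gene, IDH1, against 3.25%. The change was more negative with XY011 in 27 of 42 genes (64.3%, against 55.6% of all genes), with a median difference of -0.10 (XY011 minus SR2211) beside -0.06 over all genes. SUCLA2 differed most, at 25.6 RPKM with SR2211 against 23.8 in vehicle (0.10) and 13.9 FPKM with XY011 against 21.0 (-0.56). With ENZ it stood at 23.7 FPKM against 24.1 in vehicle (-0.03). The difference between SR2211 and XY011 reached 0.5 in 5 genes (11.9%, against 28.5% of all genes), SUCLA2, PFKFB3, DLD, PFKFB2 and DLAT. With 1 library each none of these differences could be tested. In these comparisons of both compounds all genes were not matched to the members for level, and most members are abundant.

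**Figure D3:**
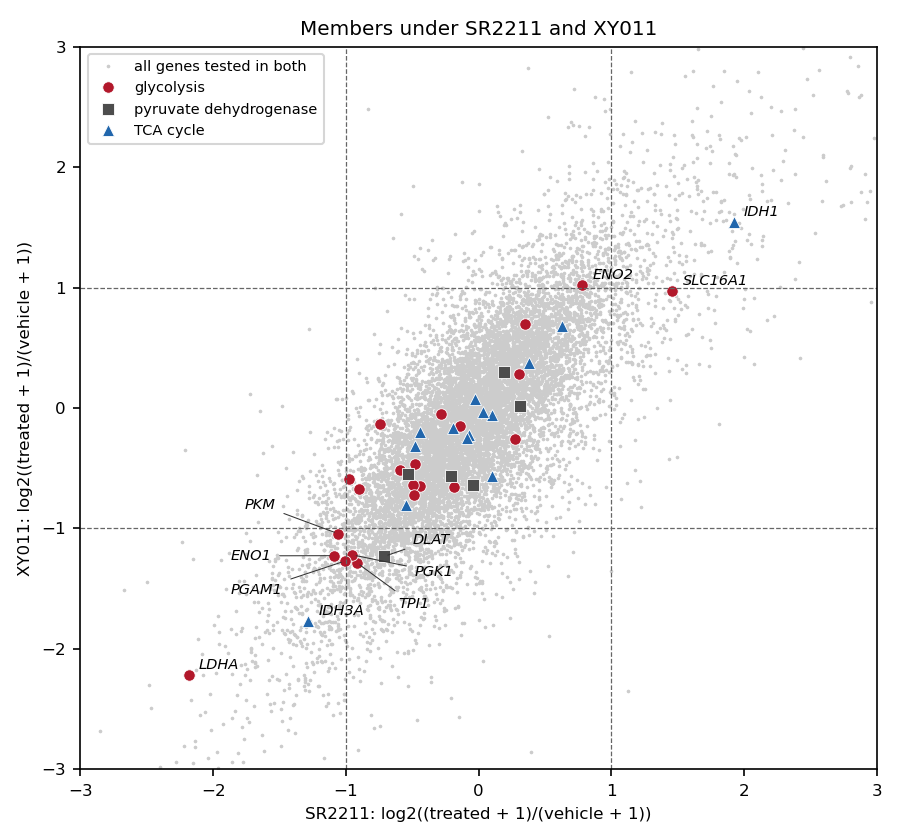
Log2 change with XY011 against log2 change with SR2211 for the genes tested in both experiments in grey, with glycolysis as circles, pyruvate dehydrogenase as squares and the TCA cycle as triangles; dashed lines mark the 2-fold rule, members past it in 1 or both experiments are named, and 57 genes lie beyond the axes at 3. LDHA (-2.19 with SR2211, -2.22 with XY011) and IDH1 (1.92, 1.54) stand at opposite ends, and TPI1, PGK1, PGAM1, ENO1 and PKM form a tight group near -1.

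A limma fit over the SR2211 and XY011 libraries took both compounds as repeats of a class, with the experiment as a block. The fit assumed this class and did not test it. It left 1 residual degree of freedom, so its two-sided p-values set the shared effect against how far both responses differ, which mixes compound and experiment, and against a spread borrowed across 12071 genes. By this fit, 10 members fell at a Benjamini-Hochberg adjusted p under 0.05, SLC2A1, PFKFB4, TPI1, PGK1, PGAM1, ENO1, PKM, LDHA, DLAT and IDH3A, where 13.3% of all genes did. ENO2, SLC16A1 and IDH1 rose, against 8.93% of all genes. LDHA had a log2 effect of -2.20 with a standard error of 0.19 (limma adjusted p = 0.00503), IDH1 one of 1.73 with 0.21 (adjusted p = 0.00713) and IDH3A one of -1.53 with 0.22 (adjusted p = 0.00996). ENO1, PGAM1, TPI1, PGK1 and PKM had effects between -1.05 and -1.16 with limma adjusted p-values between 0.0145 and 0.0188. SLC16A1 reached 1.22 with a standard error of 0.22 (limma adjusted p = 0.0164) and DLAT -0.97 with 0.22 (adjusted p = 0.0291). SLC2A1 and PFKFB4, both at -0.79, lay nearest the threshold (limma adjusted p = 0.0381 and 0.043), and ACO1 (0.0574) and FH (0.0576) lay just outside it. With a pseudocount of 0.1 in place of 1, no gene of the 12071 passed in this limma fit, although 4186 genes and 19 members had an unadjusted p under 0.05, and LDHA had an adjusted p of 0.0578. Over the other alternatives the limma adjusted p of LDHA lay between 1.17e-05 and 0.0122, and those of SLC2A1, PFKFB4 and DLAT reached 0.0664, 0.0745 and 0.0522.

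Isoenzyme shares set levels beside each other within a library. LDHA made up 32.6% of the summed LDHA and LDHB level with SR2211 against 61.1% in vehicle, 41.5% with XY011 against 66.8% and 29.4% with ENZ against 41.7%. IDH1 made up 84.4% of IDH1 and IDH2 with SR2211 against 50.4% in vehicle, 80.9% with XY011 against 53.7% and 54.2% with ENZ against 40.1%. In both families the shift had the same direction in all 3 experiments and was smallest with ENZ. PFKM made up 45.7% of the phosphofructokinase subunits with SR2211 against 35.0% in vehicle, 58.1% with XY011 against 46.8% and 52.3% with ENZ against 48.9%. SUCLG2, the GTP-forming type of succinate-CoA ligase, made up 62.7% of SUCLG2 and SUCLA2 with SR2211 against 58.0% in vehicle, 72.8% with XY011 against 57.6% and 53.8% with ENZ against 50.6%. ENO2 stayed at or under 1.02% of the enolases, so its rise in the fit was a rise in a minor form. PDK2 made up 71.6% of PDK1 and PDK2 with ENZ against 57.2% in vehicle, while with SR2211 it made up 42.9% against 45.0% and with XY011 63.6% against 58.5%.

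**Figure D4:**
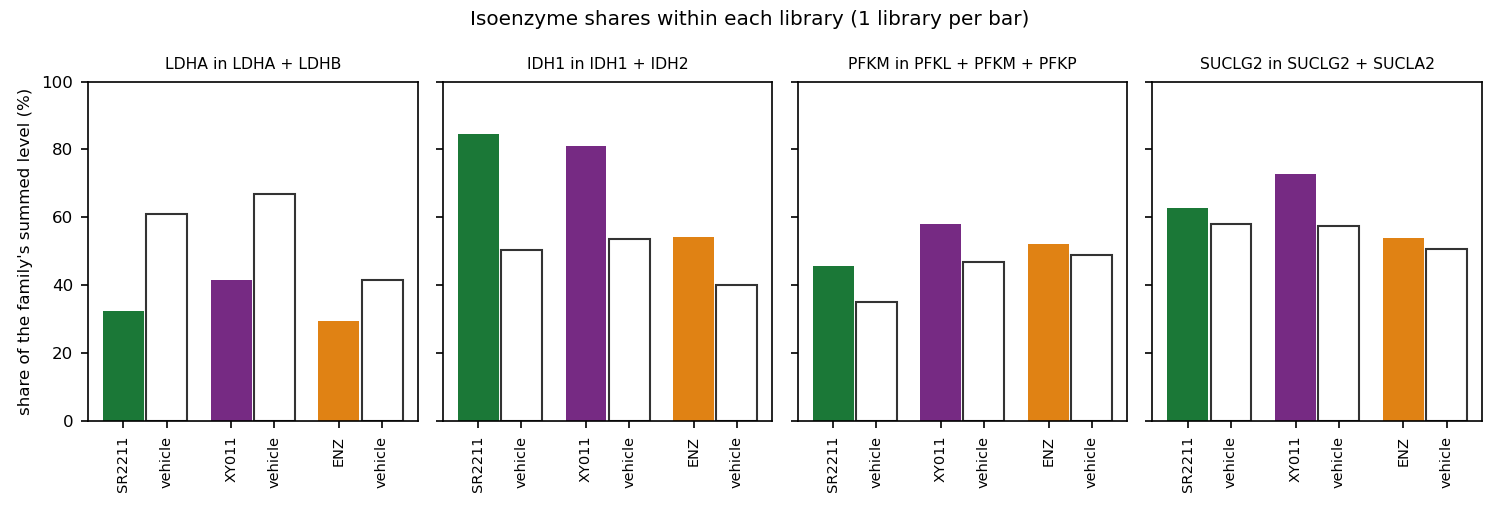
Share of 1 isoenzyme in the summed level of its family in each library, in percent, with filled bars for treated libraries and open bars for the vehicle of the same experiment. The LDHA share is lower and the IDH1, PFKM and SUCLG2 shares are higher in each treated library, and the IDH1 share with SR2211 is 84.4% against 50.4% in vehicle.

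Summed over the arm, glycolysis made up 1.17% of all gene-level RPKM with SR2211 against 1.91% in vehicle, a ratio of summed levels of 0.614. It made up 1.14% of FPKM with XY011 against 2.08% (ratio 0.556) and 0.773% with ENZ against 0.994% (ratio 0.792). Without GAPDH, the most abundant member outside ENZ, the ratios were 0.555, 0.486 and 0.780. The summed level of the TCA cycle arm was the higher one when treated, with ratios of 1.23, 1.08 and 1.09. Cytosolic IDH1 decided this with SR2211 and XY011, since without it the ratios were 0.916, 0.908 and 1.04.

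Neighbouring pathways were read with the same 2-fold rule, and a gene outside the 42 is named where it passed with both SR2211 and XY011. Of all tested genes, 5.1% were higher and 5.74% lower with SR2211, and 7.59% and 13.2% with XY011. With ENZ the shares were 3.67% and 4.66%. The lists below are short, and none was tested against these shares. Of 14 other glucose-handling genes tested with SR2211, 0 were higher and 1 was lower, with XY011 1 of 14 was higher and 1 lower, and with ENZ 0 of 16 were higher and 1 lower. The lower gene was the lactate exporter SLC16A3 (MCT4), at 4.31 RPKM with SR2211 against 24.0 in vehicle (-2.23), 0.90 FPKM with XY011 against 3.12 (-1.12) and 62.9 FPKM with ENZ against 133 (-1.07). SLC16A3 was thus lower in all 3 experiments, but with XY011 it entered the comparison only through its vehicle value. Of 11 pyruvate-handling genes, 4 were higher and 2 lower with SR2211, 3 and 1 with XY011, and 2 and 1 with ENZ.

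MPC2, a subunit of the mitochondrial pyruvate carrier, stood at 101 RPKM with SR2211 against 325 in vehicle (-1.67), 60.5 FPKM with XY011 against 271 (-2.15) and 213 FPKM with ENZ against 635 (-1.57). PDP1, the phosphatase that switches pyruvate dehydrogenase back on, stood at 8.35 RPKM with SR2211 against 3.60 in vehicle (1.02), 11.99 FPKM with XY011 against 2.49 (1.90) and 14.3 FPKM with ENZ against 4.08 (1.59). PCK2, the mitochondrial phosphoenolpyruvate carboxykinase, stood at 186 RPKM with SR2211 against 26.4 in vehicle (2.77), 126 FPKM with XY011 against 19.5 (2.63) and 381 FPKM with ENZ against 112 (1.75). These 3 passed the 2-fold rule in all 3 experiments, in the direction they had with SR2211. ME1, the cytosolic malic enzyme, stood at 156 RPKM with SR2211 against 41.1 in vehicle (1.89), 83 FPKM with XY011 against 34.2 (1.26) and 62.1 FPKM with ENZ against 39.8 (0.63).

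Of the 5 genes of the serine branch, which leaves glycolysis at 3-phosphoglycerate, 3 were higher and 0 lower with SR2211, 2 and 1 with XY011, and 0 and 0 with ENZ. PHGDH, its first enzyme, stood at 337 RPKM with SR2211 against 156 in vehicle (1.10), 394 FPKM with XY011 against 122 (1.68) and 481 FPKM with ENZ against 249 (0.95). PSAT1, its second, stood at 334 RPKM with SR2211 against 95.7 in vehicle (1.79), 239 FPKM with XY011 against 80.6 (1.56) and 214 FPKM with ENZ against 122 (0.80). SHMT1, the cytosolic serine hydroxymethyltransferase, named after its values were seen, went the other way, at 23.1 RPKM with SR2211 against 45.03 in vehicle (-0.93), 14.2 FPKM with XY011 against 48.5 (-1.70) and 55.7 FPKM with ENZ against 68.0 (-0.28). SHMT2 and PSPH are also named with their values known. SHMT2, past the rule with SR2211 alone, had changes of 1.01 with SR2211, 0.86 with XY011 and 0.12 with ENZ. PSPH had changes of 0.39, -0.36 and 0.32. The list thus did not move as 1 group, with SHMT1 negative in all 3 experiments and PSPH with XY011 alone. Among the electron shuttles 1 of 7 was higher and 1 lower with each of SR2211 and XY011, and 0 of 8 with ENZ. The higher one was GOT1, the cytosolic aspartate aminotransferase, at 142 RPKM with SR2211 against 58.2 in vehicle (1.27), 151 FPKM with XY011 against 66.8 (1.16) and 105 FPKM with ENZ against 84.5 (0.31). The lower one was SLC25A13, a mitochondrial aspartate-glutamate carrier, at 10.2 RPKM with SR2211 against 24.2 in vehicle (-1.17), 3.46 FPKM with XY011 against 22.3 (-2.39) and 20.0 FPKM with ENZ against 27.1 (-0.42). None of the 10 further TCA cycle genes tested, among them IDH3G and the succinate dehydrogenase subunits, passed the rule in any experiment. Of 8 pentose phosphate genes 1 was higher with SR2211, 1 lower with XY011 and 0 either way with ENZ.

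Several of these transcripts have near-identical copies. In GENCODE 29, 16 of the 42 genes had pseudogenes named after them, 62 for GAPDH, 13 for PGAM1 and 6 for LDHA. The ENZ experiment listed many of them, and the 6 copies of LDHA summed to 172 FPKM with ENZ against 341 in vehicle, the same direction as LDHA itself. The copies of GAPDH listed there summed to 1205 FPKM with ENZ against 1430.0 in vehicle, those of TPI1 to 473 against 592 and those of ENO1 to 272 against 413. The copies of PKM went the other way from PKM itself, at 220.3 FPKM with ENZ against 213 in vehicle. PGAM4, an intact retrocopy of PGAM1, stood at 33.9 FPKM with ENZ against 47.0 in vehicle and below 1 in the other experiments. The sources used here do not give how reads that match several copies were assigned. Levels of LDHA, GAPDH, TPI1, ENO1, PKM and PGAM1 are uncertain to that extent in every experiment. In the SR2211 and XY011 experiments only copies of TPI1 and PGAM1 were listed, which summed to at most 3.27 for either gene. Copies of LDHA, GAPDH, ENO1 and PKM were not listed there, so their signal in those experiments is unknown. In addition 22 members share exon bases with a gene on the opposite strand, among them IDH1 with IDH1-AS1, SLC16A1 with SLC16A1-AS1, ENO1 with ENO1-AS1 and IDH3A with ACSBG1 and CIB2, and reads of both cannot be told apart where strand was not used. LDHA, PGAM1 and PKM share none.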

How the data were processed

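RNA-seq values of 6 libraries of C4-2B cells, 3 treated and 3 vehicle, were analysed. The SR2211 files hold RPKM computed and deposited by the authors. The XY011 and ENZ files hold FPKM computed and deposited by the authors. Poly(A) RNA and a TruSeq kit were used, per the labels' protocols. The tools in the submitters' processing notes are Bowtie, BWA, Cuffdiff and Cufflinks, with hg19 and GRCh37 as builds. Not given in the sources used here are the tool behind each table and the use of strand.

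Groups come from the titles. The extraction protocol of the XY011 pair names another code, and that of the ENZ pair names SR2211. Depth was recovered for the SR2211 pair alone, from 26 and 17 microRNA genes, of which 96.2% and 100% came out whole within 0.01 read. PFKFB4 was matched by symbol in that experiment, where its identifier cell held no number.

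Genes at 1 or more in either library of a pair were tested, small RNA genes left out, with a pseudocount of 1 and a 2-fold rule. limma 3.58.1 (R 4.3.3) fitted log2(value + 1) for 12071 genes with a mean of 1 or more, borrowing 5.303 prior degrees of freedom, and the code was tested on simulated data. Each group is 1 library, so no spread between cultures was measured. Alternatives were another pseudocount, other filters, centring, quantile and sum scaling, a 1.5-fold rule, a trended prior and a fit over all libraries.

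All 42 members are named. Values in every library are given for members past the 2-fold rule in any pair, for the first and last enzymes of the arms and for 10 further examples. The members, lists and rules were chosen with earlier results of these data known. Protein sequences are not used here, and 2 genes of the pathway and marker lists are not reported here.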

Additional observations from a re-analysis of the deposited data

How the results depend on the processing

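Each group is 1 library, so no alternative could leave a library out. Without any 1 library the class fit has no residual degree of freedom. The class fit holds the experiment as a block, and within an experiment there is 1 treated and 1 vehicle library, so no further pairing could be tried. With a 1.5-fold rule, 12 members were lower and 4 higher with SR2211, 16 lower and 5 higher with XY011, 6 lower and 1 higher with ENZ, and 10 lower and 4 higher with both SR2211 and XY011. Over all genes that rule called 17.2%, 27.8% and 12.4% lower with SR2211, XY011 and ENZ, and 13.8%, 17.0% and 11.6% higher. For genes past a rule with both compounds, no share over all genes was worked out under the alternatives. Centring by the median gene of the pair left 3 members lower with SR2211 (7.1%, against 4.7% of all genes). It left 3 lower with both compounds, and made 2 higher with both. It moved the glycolysis median with XY011 to -0.47 and the TCA cycle medians to 0.0141 with SR2211 and -0.0387 with XY011. Quantile scaling gave a glycolysis median of -0.50 with XY011, TCA cycle medians of 0.0176 with SR2211 and -0.0490 with XY011, and 2 members higher with both compounds. It brought GAPDH and SLC16A1 past the 2-fold rule with XY011 and took out PGAM1 with SR2211. A pseudocount of 0.1 gave 2 members higher with both compounds and left 0 members lower and 0 higher in the class fit. It also brought PFKFB4 (lower) and ENO2 (higher) past the 2-fold rule with SR2211. A filter at 5 left 1 member higher with XY011, against 8.0% of all genes. Scaling all libraries to the same sum gave 2 lower with ENZ (4.8%, against 4.4% of all genes), PGK1 joining LDHA. It also brought PFKFB4 past the 2-fold rule with SR2211. A trended prior gave 16 members lower and 4 higher in the class fit, where 2160 and 1401 of all 12071 genes were. The calls of LDHA in all 3 experiments, and of ENO1, IDH3A and IDH1 with SR2211 and XY011, stood under the pseudocount, centring, quantile and sum alternatives of the size rule. The depth of the XY011 and ENZ libraries is unknown, so the counting error of low members such as ENO2 and PFKFB4 cannot be given there.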
